A study of Mus musculus with 6 samples.

Results

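The genes described here encode the proteins of the cytosolic ribosome. They are the protein-coding rows of the count table whose symbol is a ribosomal protein name of the large subunit (Rpl, Rplp0 to Rplp2) or the small subunit (Rps, Rpsa), with pseudogenes and S6 kinases left out. This gave 82 genes of 24794 in the table, 50 of the large and 32 of the small subunit. Fau, which encodes a ribosomal protein fused to a ubiquitin-like protein, falls outside that name rule and is given with the linked genes. Polyadenylated RNA was sequenced from cultured LLC cells, the Lewis lung cancer line of the mouse. Mimics of miR-291-3 had been transfected into the cells of 3 libraries (mimic) and a control mimic into those of the other 3 (control). The design text speaks of overexpressing miR-291a-3p, and the labels give neither a dose nor a time after transfection. Total counts ranged from 25376993 to 32963986 per library. The labels do not state whether replicate libraries stem from independent cultures. The p-values therefore reflect only how far these libraries vary, and that variation may be technical.

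A eukaryotic ribosome holds 1 copy of nearly every ribosomal protein, with the acidic stalk proteins as the known exception, and a cell makes the proteins of both subunits in matched amounts. Their mRNAs are among the most abundant in growing cells. Many begin with a terminal oligopyrimidine tract, a C followed by an unbroken run of C and T (U in the RNA), and are called TOP mRNAs. Through this tract their translation responds to the kinase mTOR and the RNA-binding protein LARP1. Several ribosomal proteins have a paralogue encoded elsewhere in the genome that is made in fewer tissues or in other amounts.

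The microRNA is shown first because it is the agent of the study. The seed, bases 2 to 8, is in capitals in the RefSeq sequence, which lies on the plus strand at chr7:3218968-3218989 of GRCm38.p6.
mmu-miR-291a-3p: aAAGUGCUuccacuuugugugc

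A match of this seed was sought in the longest annotated 3' UTR of each gene (GENCODE M21, GRCm38, whereas the authors used GRCm39). The words were AGCACTTA (8mer), AGCACTT (7mer-m8), GCACTTA (7mer-A1) and GCACTT (6mer), of which the longer contain the shorter. Of 81 tested members, 7 held a match of 7 or 8 bases, 3 held a 6mer only and 71 held none. That is 8.64% with a 7-base or 8-base match, against 21.03% of 11478 other tested genes. The UTRs differ in length, with a median of 160 bases in the members and 1178 in the others. The 8mer belonged to Rpl11, whose protein joins the 5S ribosomal RNA in a particle that can also bind MDM2. It lies on the minus strand at chr4:136049882-136049889, in exonic 3' UTR sequence, and is shown with 8 bases on each side and the match in capitals, together with the 7mer-m8 of Rpl23 (minus strand, chr11:97777769-97777775) and of Rpl37 (plus strand, chr15:5119069-5119075).
Rpl11: ggaccacaAGCACTTAaagaaagc
Rpl23: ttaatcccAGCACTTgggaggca
Rpl37: ttattcccAGCACTTggtgacag

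None of the 10 members with a match of any length was lower in the mimic libraries. Their log2 changes ran from 0.040 in Rpsa (7mer-m8) to 0.27 in Rpl7l1 (6mer), with 0.21 in Rpl11, 0.10 in Rpl23 and 0.10 in Rpl37, although Rpsa had a log2 change of -0.016 with total counts only. In Rpl7l1, Rpl9, Rps15a and Rpsa the match is in some but not all of the annotated coding transcripts.

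Starts of transcription are shown because members share a feature there that the name rule did not use. RefSeq promoter windows (GRCm38.p6, 250 bases before to 50 after the start) were matched by symbol for 62 of the 82 members, 1 window per gene. The annotated start was a C with at least 5 C or T in a row, that C included, in 12 members, or 19.4%, against 2.49% of all 27025 genes in the table and 2.20% of 9161 other tested protein-coding genes. A run of at least 8 C or T that begins on a C within 40 bases of the start was found on the gene's own strand in 47 members (75.8%), against 25.4% and 23.6% of the same sets. CCGGAAG, letters that ETS transcription factors bind, was present on either strand in 24 members (38.7%), against 9.12% and 19.2%. TATAAA, sought only on the gene's own strand around the start, was found in 2 members (3.23%), against 2.97% and 1.48%. The windows below hold the 15 bases before and the 15 bases from the annotated start, and capitals mark the longest C or T run that begins on a C, where it falls in the window. Rps27, Rpl7a and Rplp2 rose, Rps6 rose less, Rpl28 and Rpl13a did not pass the test, and Rpl7l1 had the highest change of the members. In order they lie at chr3:90213634-90213663 (minus), chr2:26910792-26910821 (plus), chr7:141447636-141447665 (plus), chr4:86857353-86857382 (minus), chr7:4792950-4792979 (plus), chr7:45128731-45128760 (minus) and chr17:46782642-46782671 (minus).
Rps27: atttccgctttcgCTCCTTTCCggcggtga
Rpl7a: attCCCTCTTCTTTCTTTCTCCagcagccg
Rplp2: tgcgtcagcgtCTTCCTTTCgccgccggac
Rps6: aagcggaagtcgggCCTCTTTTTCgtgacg
Rpl28: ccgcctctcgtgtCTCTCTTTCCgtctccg
Rpl13a: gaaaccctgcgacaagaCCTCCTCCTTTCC
Rpl7l1: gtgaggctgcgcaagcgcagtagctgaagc

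Members with and without these letters had similar changes. Among tested members with such a run of 8 near the start, 42 of 46 rose, with a median log2 change of 0.13. Of the 15 without, 15 rose, with a median of 0.10, and the log2 changes of both sets overlapped widely (-0.0027 to 0.24 and 0.040 to 0.27). These are descriptions of letters in a window, and no binding was measured.

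Most ribosomal protein mRNAs were slightly higher in the mimic libraries. Of the 82 genes 81 passed the filter on low counts. Of these 75 rose, 1 fell and 5 did not pass (quasi-likelihood test of edgeR, with p-values adjusted by Benjamini-Hochberg over all 13779 genes tested and a threshold of 0.05). Over all genes tested 24.3% rose and 24.8% fell. The median log2 change of the members was 0.12, an increase of 8.63%, and the median of all genes tested was -0.0078. The size of the change was under 10% in 56 members, between 10 and 20% in 24 and above that in 1. In 75 members all mimic libraries lay above all control libraries, as they did in 27.0% of all genes tested, and in 1 they lay below, as in 27.9%. In bulk RNA a change in the mix of cells and a change of RNA per cell cannot be told apart.

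**Figure D1:**
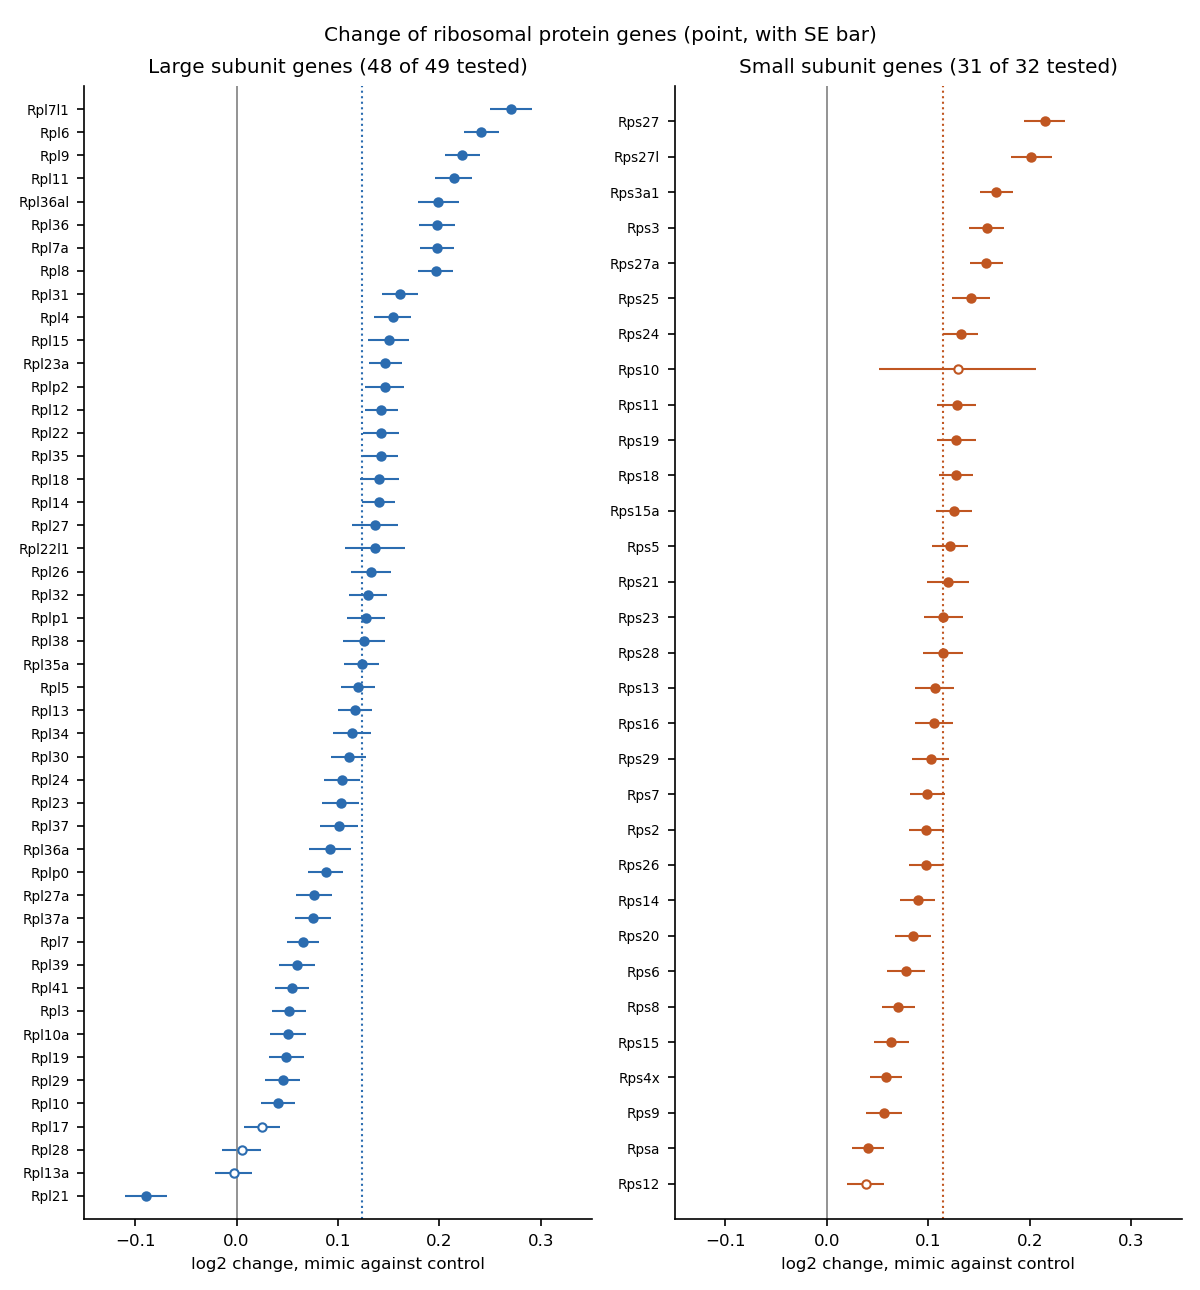
Log2 change (x axis) of 79 of the 81 tested ribosomal protein genes (y axis), large subunit left and small subunit right; bars are SE, filled points passed the test, open points did not, and dotted lines are the medians of all tested genes of the subunit. The points run from -0.089 for Rpl21 to 0.27 for Rpl7l1, and 5 are open.

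The scaling sets how many members pass. Levels are given as CPM, counts scaled to a common library size with TMM, which assumes that most genes do not change. With total counts only, 54 members rose and 3 fell, where 17.0% of all genes rose and 32.3% fell, and the members' median was 0.063. A change of scaling shifts all genes by nearly the same amount, here by -0.056 on the log2 scale, and the median of all genes was then -0.064. With limma on log2(FPKM + 0.1), 51 members rose, a count given here without the share of all genes under that fit. A share of all counts is on the same scale as total counts only. On it the members took 12.05%, 11.91% and 11.96% in control libraries 1 to 3 and 12.36%, 12.39% and 12.48% in mimic libraries 1 to 3. The mean share went from 11.98% ± 0.075 to 12.41% ± 0.062 (SD, n = 3 each), a difference of 0.434 percentage points, and the groups did not overlap.

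Other abundant mRNAs were higher in the mimic libraries as well. Among genes that are not members, the median log2 change was -0.082 below 10 CPM (5024 genes), -0.011 from 10 to 100 CPM (6669), 0.077 from 100 to 300 CPM (1566) and 0.12 at 300 CPM or more (439). In that top class 69.5% rose and 17.8% fell, beside 92.6% and 1.23% of the members. The members' median of 0.12 equals that of the abundant class to 2 decimals, and their quartiles were 0.078 and 0.14 against 0.019 and 0.22. The part of level in the members' rise was not tested.

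**Figure D2:**
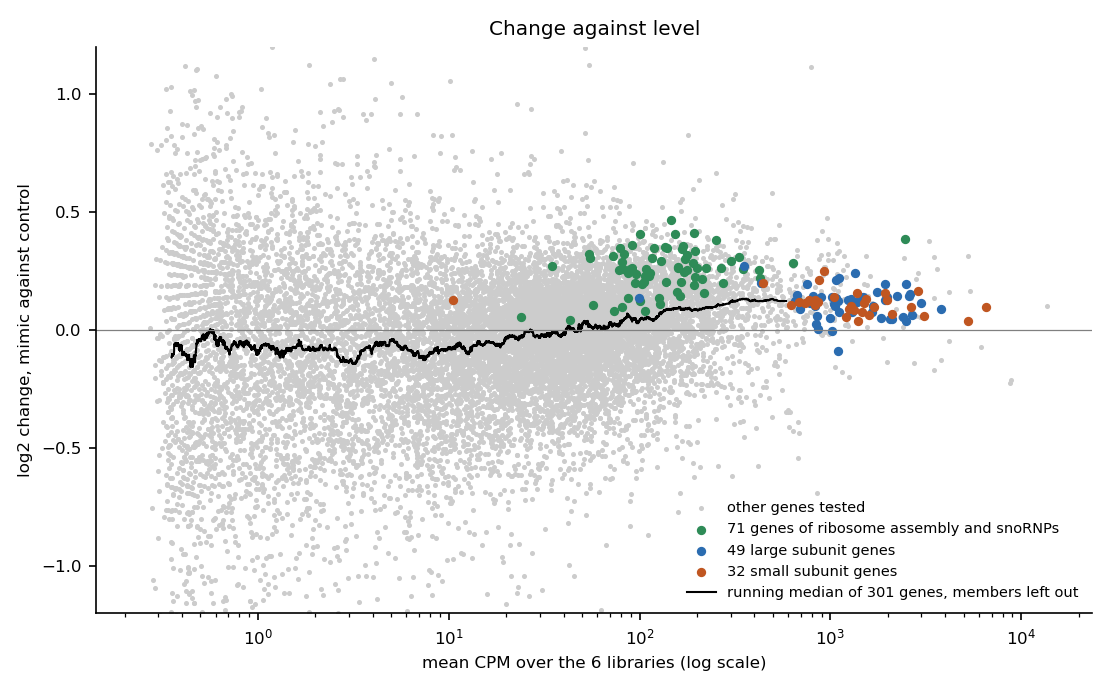
Log2 change (y axis, cut at 1.2 in both directions, which leaves out 120 genes and no member) against mean CPM over the 6 libraries (x axis, log scale). Points are genes: grey other genes tested, green genes of ribosome assembly and snoRNPs, blue large and orange small subunit genes. The black line, a running median over neighbouring genes without the members, climbs with level and reaches the height of the ribosomal protein genes, and most green points lie above it.

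The medians of the 2 subunits were close. In the large subunit 45 of 49 tested genes rose and 1 fell, with a median log2 change of 0.12 and quartiles of 0.076 and 0.15. In the small subunit 30 of 32 rose and none fell, with a median of 0.11 and quartiles of 0.089 and 0.13. Genes of the large subunit took 57.69%, 57.74% and 57.66% of the members' counts in control libraries 1 to 3 and 57.88%, 57.80% and 57.80% in mimic libraries 1 to 3. The groups did not overlap, but the means, 57.69% ± 0.040 and 57.83% ± 0.048 (SD, n = 3), lay only 0.133 percentage points apart. No p is given for sums over chosen genes.

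Rpl7l1 had the highest change of the 81. It encodes a protein related to RPL7 and lies on the minus strand at chr17:46773907-46782672 (GRCm38). Its level was 319, 324 and 319 CPM in the control libraries and 379, 391 and 390 CPM in the mimic libraries. Every mimic library lay above every control library, and the log2 change was 0.27 ± 0.020 (SE; adjusted p = 1.68e-12, edgeR), an increase of 20.6%. Rpl6, a protein of the solvent side of the large subunit, had the smallest adjusted p of all members (4.63e-13, edgeR) and went from 1240, 1215 and 1229 to 1446, 1468 and 1441 CPM. Rpl9 rose from 1036, 1007 and 1023 to 1191, 1187 and 1199 CPM, a log2 change of 0.22. These 3 genes stood 16.7 to 20.6% above the controls, while a member's coefficient of variation within a group had a median of 1.17% in the control and 1.56% in the mimic libraries.

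The mRNAs for both proteins of the 5S particle rose. This particle can hold back the p53 ubiquitin ligase MDM2 when ribosome assembly fails. Rpl11 went from 1010, 978 and 981 CPM to 1139, 1142 and 1163 CPM, with no overlap (log2 change 0.21 ± 0.018, SE). Rpl5 went from 1334, 1330 and 1316 to 1427, 1453 and 1443 CPM, a smaller log2 change of 0.12. The difference between the pair was not tested. All 4 genes of the acidic stalk, which recruits elongation factors, rose. Rplp0, the base of the stalk and a common reference gene in quantitative PCR, went from 3724, 3653 and 3725 to 3822, 3965 and 4011 CPM (log2 change 0.088), but scaled by total counts alone it missed the threshold (0.031, adjusted p = 0.121, edgeR). Rplp1, Rplp2 and Rpl12 had log2 changes of 0.13, 0.15 and 0.14.

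Of the genes whose proteins line the polypeptide exit tunnel, 2 of 3 rose, with a median log2 change of 0.060. Rpl4 rose by a log2 change of 0.15 and Rpl39 by 0.060, while Rpl17 (0.026) did not pass. Scaled by total counts alone, Rpl39 missed the threshold too (0.0032, adjusted p = 0.902, edgeR). All 5 genes at the rim of the tunnel rose: Rpl31 (0.16), Rpl23a (0.15), Rpl35 (0.14), Rpl26 (0.13) and Rpl19 (0.049). Of these 5, Rpl19 was negative with total counts only.

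In the small subunit, 11 of the 13 head genes listed rose. Rps19, the gene most often mutated in Diamond-Blackfan anaemia, went from 815, 784 and 795 to 877, 854 and 885 CPM, a log2 change of 0.13 ± 0.019 (SE). Rps3, which lies at the mRNA entry, rose by 0.16 on that scale. Rps6, the substrate of S6 kinase, went from 1459, 1438 and 1392 to 1492, 1541 and 1494 CPM, a log2 change of 0.078 with no overlap, but scaled by total counts alone it missed the threshold (0.022, adjusted p = 0.341, edgeR). Rpsa, a protein of the platform near the mRNA exit and also known as the laminin receptor precursor, passed narrowly (adjusted p = 0.0362, edgeR). Its libraries overlapped: 5242, 5124 and 5181 CPM in the control and 5238, 5347 and 5404 CPM in the mimic group, and its log2 change of 0.040 became -0.016 with total counts only. Over the 18 genes listed as mutated in Diamond-Blackfan anaemia, 17 rose, and Rps10 did not pass.

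**Figure D3:**
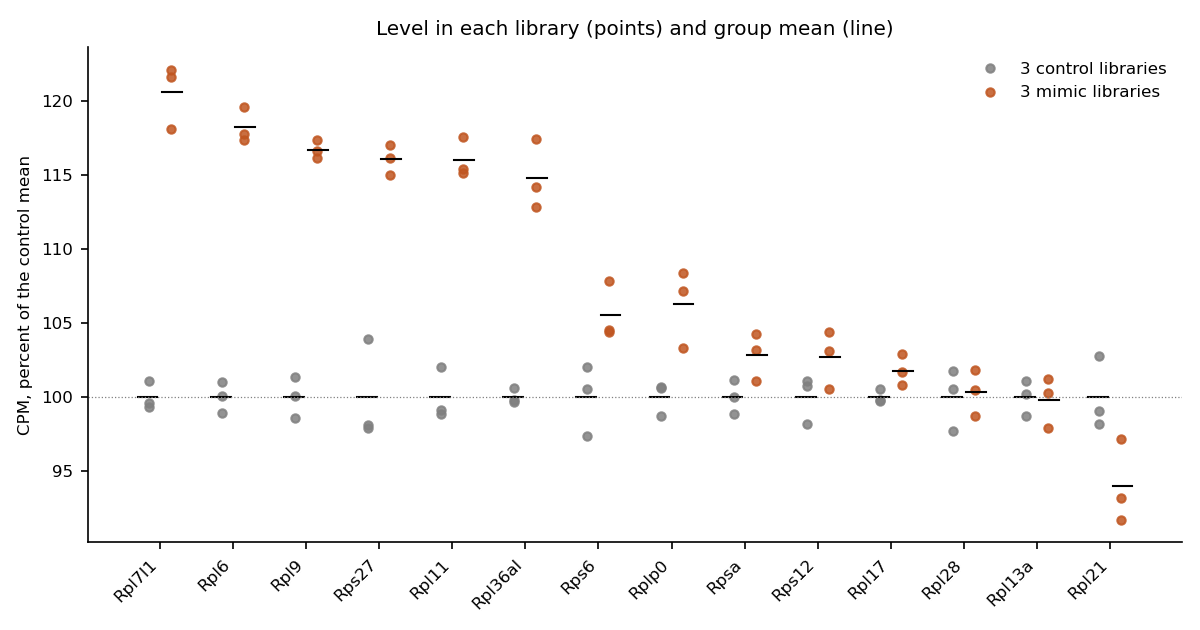
Level of 14 members in each library (points; grey control, orange mimic) as a percentage of the gene's control mean (y axis, CPM), with a line at each group mean. The mimic points of Rpl7l1 to Rpl36al lie well clear of the control points, those of Rpl28 and Rpl13a lie among them, and those of Rpl21 lie below.

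Rpl21 was the member that fell. It encodes a protein of the large subunit and lies on the plus strand at chr5:146832890-146837032 (GRCm38). Its level was 1168, 1126 and 1116 CPM in the control libraries and 1104, 1059 and 1042 CPM in the mimic libraries. All mimic libraries lay below all control libraries, and the log2 change was -0.089 ± 0.021 (SE; adjusted p = 0.000554, edgeR). Under the 15 alternatives tried the log2 change ran from -0.15 to -0.066, with a highest adjusted p of 0.0220. The gene carries small RNA genes in the annotation, which overlap 4.06% of its exonic bases. The part of such overlap on the same strand in the change of Rpl21 was not tested. Among risen members the overlap was 0% in Rpl9, 4.27% in Rpl6 and 47.0% in Rpl24, and it was 0% in Rpl28, which did not pass. Rpl13a, Rpl28, Rpl17, Rps12 and Rps10 did not pass. Rpl13a, which can leave the ribosome to silence mRNAs of the interferon-gamma response and whose introns carry snoRNAs, had 1035, 1026 and 1011 CPM against 1003, 1027 and 1037 CPM (log2 change -0.0027), and 35.4% of its exonic bases lie under other annotated genes of its strand. Rpl28 had 876, 866 and 841 CPM against 877, 865 and 850 CPM (log2 change 0.0050). Rps12 had a log2 change of 0.038 (adjusted p = 0.0845, edgeR). Rpl10, Rpl29 and Rpl3, with log2 changes of 0.041, 0.045 and 0.052, rose with TMM and were slightly negative with total counts only. With total counts only, Rpl13a and Rpl28 fell along with Rpl21.

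Few counts were assigned to Rps10. Its row held only 10.3, 9.95 and 10.1 CPM in the control and 10.5, 10.9 and 11.8 CPM in the mimic libraries, and its mean of 4.01 FPKM was the lowest of the tested members. The row named Gm49804, whose gene ID is that of a readthrough of Rps10 into its neighbour Nudt3 in GENCODE M21, held 1431, 1437 and 1476 CPM and 1594, 1592 and 1635 CPM in the same libraries. Exons of this readthrough cover 20.6% of the exonic bases of Rps10 on the same strand of chromosome 17 in that annotation. The readthrough row rose by a log2 change of 0.15 ± 0.018 (SE; adjusted p = 2.25e-08, edgeR), within the range of the members. How reads were divided between both rows is not stated in the labels, so neither row alone measures Rps10.

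Paralogues could be compared in 4 of 8 listed pairs. Rpl10l, Rpl39l and Rps4l have no row in the table used, and Rpl3l, a muscle form of RPL3, had 3 counts in 1 control library and 1 in each of 2 mimic libraries. Rpl7l1 made up 11.0%, 10.9% and 10.9% of the pair with Rpl7 in the control libraries, on the CPM scale, and 12.2%, 12.5% and 12.4% in the mimic libraries. The log2 ratio of Rpl7l1 to Rpl7 was 0.20 higher in the mimic libraries (-3.03 ± 0.0064 to -2.82 ± 0.017, SD, n = 3; exact permutation test, two-sided, p = 0.1, adjusted p = 0.2 over 4 pairs). With 3 libraries against 3 no smaller p than 0.1 is possible. Rpl36al took 36.8%, 37.4% and 37.7% of its pair with Rpl36a in the control and 39.1%, 39.5% and 38.5% in the mimic libraries. That log2 ratio was 0.11 higher, also without overlap (exact permutation p = 0.1, adjusted p = 0.2). Exons of Rpl36al share 24.5% of their bases with another gene model on the same strand.

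In the other pairs the shares overlapped between the groups. Rpl22l1, the paralogue of the RNA-binding protein RPL22, took 8.79%, 9.08% and 8.72% of its pair in the control and 8.58%, 8.89% and 8.99% in the mimic libraries. Its log2 ratio to Rpl22 differed by -0.0078 (exact permutation test, p = 0.9, adjusted p = 0.9), and by -0.023 to 0.014 when each library was left out in turn. Both genes rose, by 0.14 and 0.14 on the log2 scale. Rps27l, a p53 target gene in other cells, took 32.9%, 34.3% and 34.3% of its pair with Rps27 in the control and 33.6%, 34.3% and 32.97% in the mimic libraries. The ratio differed by -0.014 (exact permutation test, p = 0.9, adjusted p = 0.9; -0.045 to 0.0072 with each library left out), while Rps27 rose by 0.21 and Rps27l by 0.20.

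**Figure D4:**
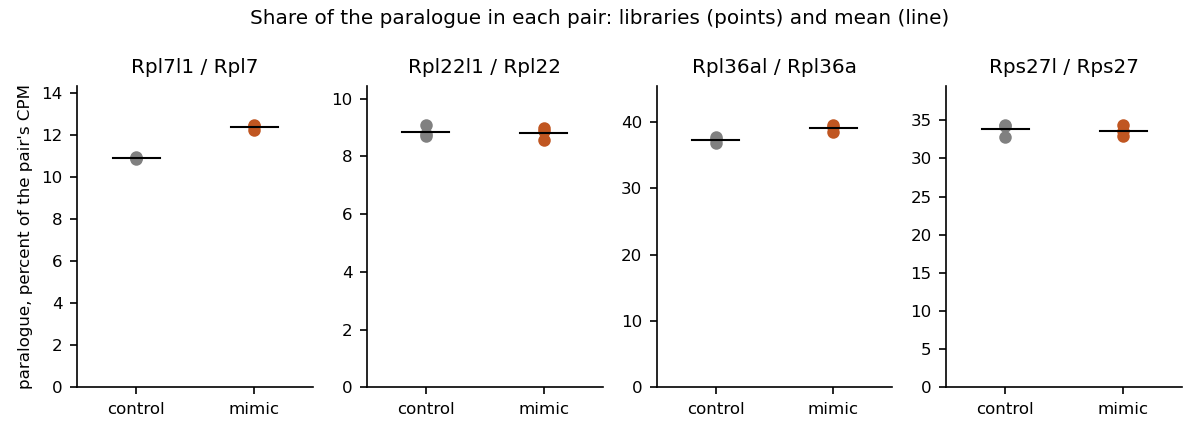
Share of the paralogue in the summed CPM of each pair (y axis, percent, from 0) in 3 control (grey) and 3 mimic (orange) libraries, with a line at each mean. The share of Rpl7l1 lies between 10.9% and 11.0% in the control and between 12.2% and 12.5% in the mimic libraries, that of Rpl36al is slightly higher in the mimic libraries, and the other pairs overlap.

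Levels of different genes were compared per length, as the authors' FPKM. Rplp1 was highest in the large subunit, at 3406 FPKM over the 6 libraries, and Rpl22l1 lowest of those tested at 43.7. In the small subunit Rps2 was highest at 3134 FPKM, with Rps10 lowest as described. The length behind these values matters: counts and FPKM together imply 570 bases for Rplp1 but 7164 for Rps15a, which stood at 108 FPKM although its 742 to 815 CPM is close to that of Rps16 (789 to 873 CPM, 574 FPKM). The order of members by FPKM thus depends on the length assigned to each gene.

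Reads may be shared with the many processed copies of these genes. The table has 202 rows named as ribosomal protein pseudogenes, whose counts came to 0.289%, 0.289% and 0.279% of the members' counts in the control and 0.273%, 0.275% and 0.296% in the mimic libraries. Only symbols made of a ribosomal protein name and a pseudogene suffix were taken, so copies under other names are not in these shares. Of the 102 pseudogene rows tested, 9 rose (8.82%) and 2 fell (1.96%), against 24.3% and 24.8% of all genes tested. Their median log2 change was 0.14, with quartiles of -0.0040 and 0.27, beside a median of 0.12 in the members. For Rpl17 the rows of its own pseudogenes held 5.20% as many counts as the gene, for Rps13 1.99%, and for Rps10 52.0%.

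Genes of ribosome assembly and of snoRNPs had a median log2 change of 0.26 in each of 3 lists, beside 0.12 in the ribosomal protein genes, a difference that was not tested. Over all 133 linked genes tested, which include TOP mRNAs and genes of the p53 axis, 118 rose and 3 fell, with a median of 0.23. That is 88.7% and 2.26%, against 24.3% and 24.8% of all genes tested. Among genes that are not members, 54.2% rose and 21.8% fell at 100 to 300 CPM. The part of level in the rise of the linked genes was not tested. With total counts only 102 linked genes rose and 6 fell, where 17.0% of all genes rose and 32.3% fell. Assembly factors of the large subunit rose in 26 of 27 cases, with a median of 0.26. Bop1, of the PeBoW complex that matures the large subunit rRNA, went from 123 ± 2.69 to 170 ± 7.14 CPM (SD, n = 3; log2 change 0.47), and the export adaptor Nmd3 rose by 0.36. Assembly factors of the small subunit rose in 32 of 33 cases, with a median of 0.26, among them Rrp9 (0.41), Utp20 (0.41) and Wdr43 (0.38). All 11 snoRNP and rRNA modification genes rose, with a median of 0.26. In that list Ncl, nucleolin, went from 2126 ± 41.1 to 2782 ± 39.4 CPM (log2 change 0.39), and Fbl, the methyltransferase fibrillarin, rose by 0.30.

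Of 15 genes of RNA polymerase I and its factors 12 rose, with a median of 0.16. The subunit genes Polr1a and Polr1b rose by 0.39 and 0.40, while the rDNA-binding factor Ubtf fell from 223 ± 1.16 to 205 ± 1.03 CPM (log2 change -0.12). Chaperones and importers of ribosomal proteins rose in 9 of 10 cases (median 0.25), among them Grwd1 (0.32) and Ipo5 (0.29). Among controllers of ribosomal protein mRNA and translation 9 of 11 rose, with a median of 0.17. Myc, a transcription factor that drives ribosome synthesis, went from 440 ± 1.95 to 576 ± 6.81 CPM (log2 change 0.39), and Eif4ebp1, an inhibitor of cap-dependent translation, rose by 0.35. Larp1 had a log2 change of 0.16 and Mtor one of 0.13, the latter not passing with total counts only.

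Most listed TOP mRNAs outside the ribosome were higher too. Of 17 listed, 15 rose and none fell, with a median of 0.14. The share risen was 88.2%, against 24.3% of all genes tested and 69.5% of genes that are not members at 300 CPM or more. Npm1, nucleophosmin, rose by 0.38, the elongation factor subunit Eef1d by 0.31, Eif3e by 0.30 and the poly(A)-binding protein Pabpc1 by 0.24. Eef1b2 (0.028) and Eif3f (0.036) did not pass. Fau and Rack1, of the small subunit, rose by 0.085 and 0.091 and did not pass with total counts only. In the list on the 5S particle and p53, 3 of 7 rose and 2 fell: the p53 partner Mdm4 (-0.13) and the cell cycle inhibitor Cdkn1a (-1.12). These are 42.9% and 28.6% of the list, against 24.3% and 24.8% of all genes tested, so the share fallen was near that of all genes. Mdm2 (0.077) and Trp53 (-0.018) did not pass, although Trp53 fell with total counts only (-0.074).

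Other families of the translation machinery were also higher. Of 78 mitochondrial ribosomal protein genes 51 rose and 4 fell, with a median of 0.13. Of 69 translation initiation, elongation and termination factor genes tested, 53 rose and 5 fell, with a median of 0.17. The shares risen were 65.4% and 76.8% in these 2 families, against 24.3% of all genes tested. The shares fallen were 5.13% and 7.25%, against 24.8%. The quartiles of the 2 families were 0.052 and 0.20 and 0.10 and 0.27, against 0.078 and 0.14 in the cytosolic ribosomal protein genes. The difference in spread was not tested.

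**Figure D5:**
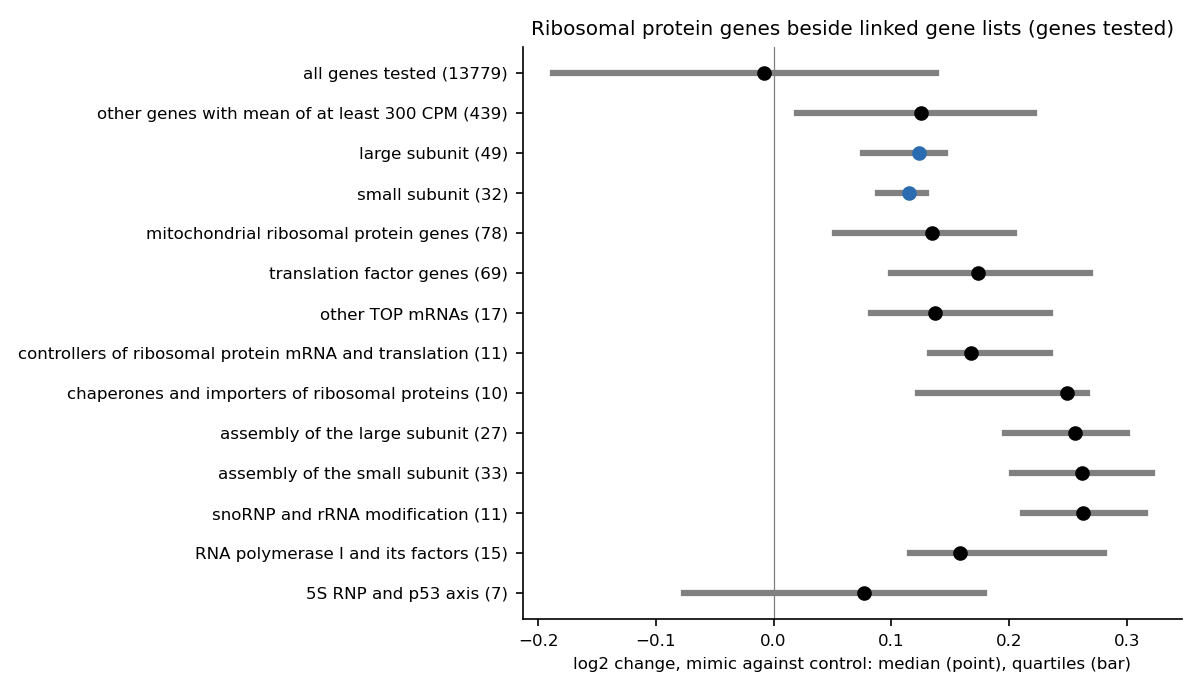
Median (point) and quartiles (bar) of the log2 change (x axis) of both subunits (blue) and of the larger linked lists and families (black), with the number of genes tested in brackets. Subunit genes sit at 0.12 and 0.11, the abundant class at 0.12, and the assembly and snoRNP lists near 0.26.

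Markers of the line and of other cells gave the following. The epithelial marker Krt8 went from a mean of 493 CPM in the control to 552 CPM in the mimic libraries and Krt18 from 1.97 to 3.65 CPM. The mesenchymal markers Vim and S100a4 went from 2063 to 1877 CPM and from 25.4 to 15.4 CPM. The stromal markers Pdgfrb and Col1a1 went from 25.5 to 31.7 CPM and from 0.083 to 1.58 CPM. Col1a1 ran from 0.035 to 3.76 CPM over the 6 libraries, and a single mimic library held most of its mimic counts. Of the leukocyte markers, Lyz2 went from 5.52 to 2.78 CPM and Cd68 from 1.68 to 1.46 CPM, while Ptprc and Adgre1 were at or near 0, as were Epcam and the endothelial marker Cdh5. Pecam1 stayed between 0.312 and 0.808 CPM. Their part in the changes of the ribosomal protein genes was not tested. Among the members, control library 1 was the highest of its group for 47 of 81 genes and mimic library 1 the lowest of its group for 46, though by a median of only 0.60% and -0.95% from the group mean.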

How the data were processed

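The authors deposited whole-number read counts for 24794 genes and FPKM values (rounded to 2 decimals) for 24494 of them. HISAT2, DESeq2 and the build GRCm39 appear in the submitters' processing notes, without versions. Libraries were stranded per the labels' protocols. Which counter and which annotation made the counts is not given in the sources used here. Libraries were grouped by title, 3 against 3. Members and lists were chosen with earlier results of these data known. Counts of all genes were fitted with edgeR 4.0.16 (R 4.3.3): filterByExpr, TMM, glmQLFit, glmQLFTest, adjusted p under 0.05. SE is the log2 change divided by the square root of F. Paralogue ratios used log2 CPM with a prior count of 0.5. Named members are those in paralogue pairs, the 8 highest and 8 lowest changes, the 5 smallest adjusted p, those not risen, 8 fixed genes and the extremes of FPKM. Members named for their role in the ribosome or for a seed match or promoter window come on top of these and were chosen after their values were seen. Of each linked list up to 4 called genes and those against the majority are named, and Larp1, Mtor and members that did not pass were chosen after their values were seen. A few named genes are not reported here, though they are in the counts. The steps were tested on simulated data. Replicates of a group differed by more than sampling noise (mean chi-square per gene 1.84 to 2.23). Alternatives were DESeq2 1.42.0, other scalings and filters, limma 3.58.1 on FPKM, a replicate block, a threshold of 0.01 and each library left out. Sequence features came from RefSeq and GENCODE tables of GRCm38. Few counts in its row limit the precision of Rps10, at about 10 CPM.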

Additional observations from a re-analysis of the deposited data

How the results depend on the processing

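The 75 risen members were 69 to 76 with any single library left out, 74 without a filter, 72 with at least 2 CPM in 3 libraries, 69 at an adjusted p under 0.01 and 76 with DESeq2. Fewer passed with total counts only (54 risen, 3 fallen) and with limma on FPKM at either pseudocount (51 risen). Apart from total counts only, the shares of all genes under these settings are not given here. The members' median log2 change was 0.063 with total counts only, 0.081 with limma on log2(FPKM + 1), 0.084 with limma at a pseudocount of 0.1, and 0.11 to 0.13 with each library left out. The large subunit medians were 0.067, 0.087, 0.087 and 0.12 to 0.13 in the same order, and those of the small subunit 0.058, 0.076, 0.079 and 0.10 to 0.13. Linked genes rose in 102 cases with total counts only, in place of 118, and fell in 6, in place of 3. Over all genes tested 17.0% rose and 32.3% fell with total counts only, in place of 24.3% and 24.8%. The members' share differed by 0.846 percentage points as a sum of FPKM. These causes were not tested.

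With total counts only, Rpl3 (-0.0045), Rpl10 (-0.016), Rpl28 (-0.051), Rpl17 (-0.031), Rps12 (-0.018), Rpsa (-0.016) and Rpl29 (-0.011) changed sign, and so did Rpl10a, Rpl19, Rpl41 and Rps9, none of them below -0.0073. Rpl13a was 0.0020 with DESeq2 size factors, 0.0040 without a filter and 0.0051 with the DESeq2 test, and ran from -0.012 to 0.018 with each library left out. Rpl28 was -0.030 with limma at either pseudocount and -0.0017 under the filter of 2 CPM in 3 libraries, and ran from -0.012 to 0.022 with each library left out. Rpl17 was -0.0100 with limma at the pseudocount of 1 and -0.010 at that of 0.1. With each library left out, the ratio of Rpl22l1 to Rpl22 ran from -0.023 to 0.014 and that of Rps27l to Rps27 from -0.045 to 0.0072.

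With the replicate block 75 members rose and 1 fell, as without it, and 119 linked genes rose in place of 118. Under that block 24.7% of all genes tested rose and 25.3% fell. The deviations of same-numbered libraries correlated at 0.020, 0.075 and 0.055, too little to treat them as pairs, though each library correlated best with the one of its own number, a hint from the data and not the design. Counts were few for Rps10 and Rpl3l, which limits the precision of both.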
